A study of Mus musculus with 9 samples.

Results

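The 10 cardiac and skeletal muscle genes described here are Actc1, Acta1, Acta2, Myog, Myl4, Myl7, Tnnt1, Tnnt2, Tnni1 and Des, read in circulating blood of mouse embryos, where muscle transcripts are not a usual component. They were taken with every probe set (a group of short probes that reads 1 transcript) that the platform annotation gave to 1 of them alone, which made 16 probe sets among 45037, and 10 genes among 18193. The set was chosen by the heterozygous minus wild-type values of Actc1, a large rise in heterozygous blood, so the heterozygous values of the 10 genes below are a description, given without p-values, and their count past the threshold is given beside that of all probe sets, with nothing read from it. Pooled peripheral blood of 8 to 10 embryos of 1 genotype at E12.5, on a mixed C57BL6/129SvEv background, was hybridized to each array. There were 3 arrays per genotype, 9 in all. Wild-type embryos (Cbfb+/+) carry 0 copies of the knock-in allele, heterozygous embryos (Cbfb+/ΔC95) 1 copy and homozygous embryos (CbfbΔC95/ΔC95) 2 copies. Cbfb encodes the partner of the RUNX transcription factors, and the series concerns its leukemia fusion with smooth muscle myosin, CBFβ-SMMHC. The labels say no more of the ΔC95 allele than its name. Nothing in them tells if replicate arrays were made from different pools of embryos, and p-values therefore cover only the spread between arrays, which may be technical.

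Muscle contracts when myosin heads pull on actin filaments inside the sarcomere, the repeating unit of striated muscle. Actc1, Acta1 and Acta2 encode the alpha-actins of heart, skeletal muscle and smooth muscle, and the early embryo uses more than one of them in each muscle. Myl4 and Myl7 encode myosin light chains of the atrium and the embryonic heart. Tnnt1, Tnnt2 and Tnni1 encode troponin subunits, which make the thin filament respond to calcium: Tnnt2 in heart, Tnnt1 and Tnni1 in slow skeletal muscle and in embryonic muscle. Des encodes desmin, the intermediate filament that ties sarcomeres together, and Myog encodes myogenin, a transcription factor that drives myoblasts to differentiate. Serum response factor binds a sequence called the CArG box near many of these genes, and myogenin binds the E-box.

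The stretch of 200 bases before the RefSeq transcript start was searched for these sequences, on both strands, in the 12 starts listed for the 10 genes (RefSeq, GRCm38.p6). A CArG box, taken strictly as CCWWWWWWGG with W for A or T, was found before Actc1, Acta1 and Myl7, against 1.18% of all 32851 such stretches. Near matches were not counted, such as ccctatatgg in the stretches before Acta2 and Actc1. The 3 stretches are printed because they hold this muscle-type motif, and the CArG box is in capitals. A link between the motif and the values below was not tested.
Actc1, chr2:114052876-114053075, minus strand: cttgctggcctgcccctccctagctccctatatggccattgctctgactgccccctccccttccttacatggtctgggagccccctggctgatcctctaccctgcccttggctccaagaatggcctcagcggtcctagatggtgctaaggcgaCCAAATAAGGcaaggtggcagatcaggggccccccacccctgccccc
Acta1, chr8:123894776-123894975, minus strand: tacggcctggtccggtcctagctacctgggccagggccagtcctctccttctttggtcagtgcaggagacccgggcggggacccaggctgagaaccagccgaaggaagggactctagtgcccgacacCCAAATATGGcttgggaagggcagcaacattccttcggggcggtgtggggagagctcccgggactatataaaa
Myl7, chr11:5898783-5898982, minus strand: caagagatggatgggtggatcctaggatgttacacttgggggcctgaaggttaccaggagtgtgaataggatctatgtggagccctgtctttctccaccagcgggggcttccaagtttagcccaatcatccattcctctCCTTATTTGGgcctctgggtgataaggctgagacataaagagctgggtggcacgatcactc
The CArG box starts 47 bases before the Actc1 start, 73 bases before the Acta1 start and 61 bases before the Myl7 start. The E-box CANNTG was found before 7 of the 10 genes, Myog among them. Counted by stretch, it was in 9 of the 12, and in 58.2% of all stretches. TATAAA was found before Acta1 and Tnnt1 and in 9.96% of all stretches. These matches describe letters and do not show binding.

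Values are the deposited expression values, read as log2, which are relative within an array. Within a genotype, r between arrays was 0.996 to 0.998 over all probe sets, and array medians were 4.27 to 4.30. As a check of the tissue, the embryonic globin genes Hba-x, Hbb-y and Hbb-bh1 had group means of 14.18 to 14.42, and the erythroid heme enzyme gene Alas2 had 13.13 to 13.29. The 16 muscle probe sets had wild-type means between 2.07 and 5.91, 9 of them below every array median, and without detection calls it is unknown which stood above background. Bacterial transcripts that are added before labelling, the poly-A spike-ins, were higher by 0.88 in heterozygous and by 1.58 in homozygous arrays than in wild-type arrays. Setting the spike-ins equal moves all differences down by these amounts, so that every rise in the text turns into a lower value under that scaling, except those of Actc1, Col3a1, Lyve1 and Tubb2b and 1 probe set of Pfn2 in heterozygous blood.

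Actc1, the cardiac actin gene, was read by 1 probe set, 1415927_at, at chr2:114047282-114052875. Its log2 values were 4.96, 4.85 and 5.03 in the wild-type arrays, 7.33, 7.50 and 7.50 in the heterozygous arrays, and 5.32, 5.37 and 5.40 in the homozygous arrays. All heterozygous arrays were far above the others, and the homozygous arrays lay slightly above the wild-type arrays without overlap. The heterozygous minus wild-type difference was 2.50 ± 0.07 on the log2 scale (SE, n = 3 per group), or 5.65-fold. It stayed between 2.45 and 2.56 when any 1 array was left out, and was 1.62 with the spike-ins set equal. In homozygous blood Actc1 was higher than in wild-type blood by 0.42 ± 0.07 (SE; 1.33-fold, limma adjusted p = 0.000821). This second contrast uses the same wild-type arrays as the one that chose the gene, and with the spike-ins set equal it turned to -1.17. The homozygous minus heterozygous difference was -2.08 ± 0.07 (SE), so the level did not follow the number of copies of the allele: it was highest with 1 copy.

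**Figure D1:**
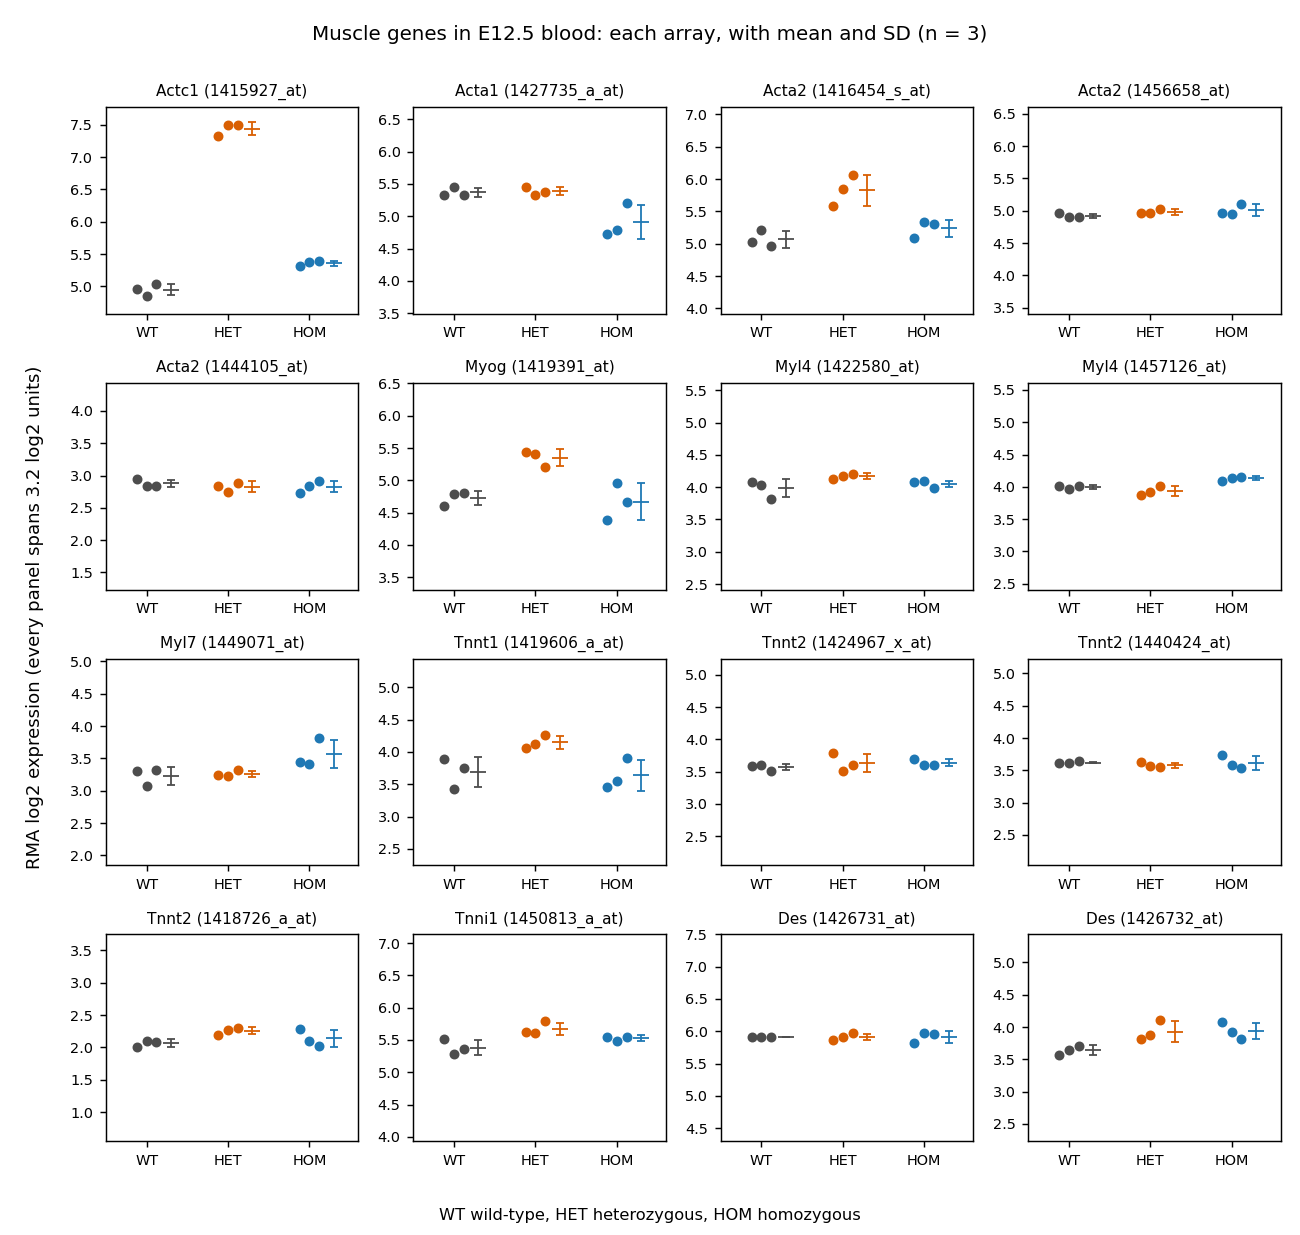
Log2 expression (vertical axis, the same span in every panel) of the 16 probe sets of the 10 muscle genes, by genotype (horizontal axis). Each point is an array, and the bars give the mean and SD of 3 arrays. Actc1 at 7.33 to 7.50 in heterozygous blood stands clear of its other arrays, while every other panel shows differences of under 1 log2 unit between group means.

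The other striated muscle actin gene had another order of levels. Acta1, the skeletal actin gene (1427735_a_at), was at 5.33, 5.45 and 5.33 in wild-type, 5.45, 5.33 and 5.38 in heterozygous and 4.73, 4.79 and 5.21 in homozygous blood. Wild-type and heterozygous arrays overlapped, and the homozygous arrays were all lower, replicate 3 by less than the others. The heterozygous minus wild-type difference was 0.02 ± 0.11 (SE; 95% interval -0.22 to 0.25). Acta1 fell in homozygous blood by a log2 difference of -0.46 ± 0.11 (SE; 1.37-fold, limma adjusted p = 0.00896). Leaving out any 1 array gave -0.61 to -0.37, and the call was kept in all 20 alternatives. With the spike-ins set equal it was -2.04, but that scaling lowers every homozygous difference and so cannot undo a fall.

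Acta2, the smooth muscle actin gene, was read by 3 probe sets that disagreed. The brightest, 1416454_s_at, was at 5.02, 5.21 and 4.97 in wild-type, 5.58, 5.85 and 6.06 in heterozygous and 5.09, 5.34 and 5.30 in homozygous blood. Its heterozygous arrays lay above all others, and the homozygous and wild-type arrays overlapped. The heterozygous difference was 0.76 ± 0.11 (SE; 1.69-fold), and the homozygous difference of 0.17 did not pass the test (95% interval -0.08 to 0.42, limma adjusted p = 0.337). The other probe sets, 1456658_at and 1444105_at, gave heterozygous differences of 0.06 and -0.05, with overlapping arrays. The ending _s_at marks a probe set that may also read related transcripts, and the alpha-actins are close relatives.

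Myog, the myogenic factor gene (1419391_at), was at 4.60, 4.79 and 4.80 in wild-type, 5.44, 5.41 and 5.20 in heterozygous and 4.38, 4.96 and 4.66 in homozygous blood. The heterozygous arrays lay above both other groups, which overlapped. The differences from wild type were 0.62 ± 0.12 in heterozygous and -0.06 ± 0.12 in homozygous blood (SE; 95% interval of the latter -0.34 to 0.21, limma adjusted p = 0.769).

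Among the troponin genes, Tnnt1 and Tnni1 had higher heterozygous means and Tnnt2 differed little. Tnnt1 (1419606_a_at) was at 3.89, 3.43 and 3.75 in wild-type, 4.06, 4.13 and 4.26 in heterozygous and 3.46, 3.55 and 3.91 in homozygous blood. Its heterozygous arrays were above the others by a narrow gap, with a difference from wild type of 0.46 ± 0.13 (SE). Tnni1 (1450813_a_at) was at 5.51, 5.28 and 5.36 in wild-type, 5.62, 5.61 and 5.79 in heterozygous and 5.55, 5.49 and 5.55 in homozygous blood. Its heterozygous arrays were also the highest, by 0.29 ± 0.07 over wild type (SE). When any 1 array was left out, the heterozygous difference was 0.34 to 0.56 for Tnnt1 and 0.23 to 0.35 for Tnni1. Homozygous differences were -0.05 for Tnnt1 and 0.15 for Tnni1 and did not pass (limma adjusted p = 0.826 and 0.205). For Tnnt2, the cardiac troponin T gene, 3 probe sets gave heterozygous differences of -0.04 to 0.19 and homozygous differences of -0.01 to 0.07. None passed the test in homozygous blood, and only 1418726_a_at, the dimmest, had heterozygous arrays (2.19, 2.27 and 2.30) above all wild-type arrays (2.00, 2.10 and 2.09).

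The myosin light chain genes of the atrium differed little in heterozygous blood. Myl7 (1449071_at) was at 3.31, 3.07 and 3.32 in wild-type, 3.24, 3.22 and 3.32 in heterozygous and 3.45, 3.42 and 3.82 in homozygous blood. The homozygous arrays were the highest, replicate 3 most of all, with a difference from wild type of 0.33 ± 0.10 (SE, limma adjusted p = 0.0414). This call was lost when wild-type replicate 1, 2 or 3 was left out (0.37, 0.25 and 0.38), without homozygous replicate 3 (0.21), and without any 1 heterozygous array (0.33 each). The probe sets of Myl4, 1422580_at and 1457126_at, gave heterozygous differences of opposite sign, 0.19 and -0.07. Their homozygous differences of 0.08 and 0.12 did not pass (limma adjusted p = 0.522 and 0.176).

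Des, the desmin gene, was read by a brighter and a dimmer probe set. The brighter, 1426731_at, was at 5.91 in all 3 wild-type arrays, 5.86, 5.91 and 5.97 in heterozygous and 5.82, 5.98 and 5.95 in homozygous blood, with overlapping groups. The dimmer, 1426732_at, was at 3.56, 3.64 and 3.71 in wild-type, 3.81, 3.87 and 4.11 in heterozygous and 4.08, 3.93 and 3.81 in homozygous blood. Both mutant groups lay above wild type there and overlapped each other. Its differences were 0.29 ± 0.09 in heterozygous blood and 0.30 ± 0.09 in homozygous blood (SE, limma adjusted p of the latter = 0.0336). The homozygous call was lost without wild-type replicate 1 (0.26) or 2 (0.31) or homozygous replicate 1 (0.23) or 2 (0.31), and the brighter probe set was at 0.01 in the same contrast.

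Counted by probe set, 5 of 16 were past the threshold (limma adjusted p under 0.05) and higher in heterozygous than in wild-type blood and 0 were lower. Of all probe sets, 8.56% were past it in this contrast, 3.41% higher. Because this contrast led to the choice of the genes, nothing is read from that count. It was 3 without wild-type replicate 2 or 3 or heterozygous replicate 1 or 3. The arrays of the groups did not overlap in 8 of the 16 (24.1% of all probe sets). In homozygous blood 3 of 16 were higher and 1 was lower, where 20.0% of all probe sets were past the threshold, 8.34% higher and 11.7% lower. That count of 4 was 2 without wild-type replicate 1 or 2. Arrays did not overlap in 5 of 16 (32.4% of all probe sets). The median difference of the 16 was 0.13 in heterozygous blood, against 0.01 over all probe sets, and 0.07 without Actc1. In homozygous blood it was 0.07, against 0.04 over all. With the spike-ins set equal, 13 of the 16 were lower and 1 higher in heterozygous blood, and all 16 were lower in homozygous blood.

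**Figure D2:**
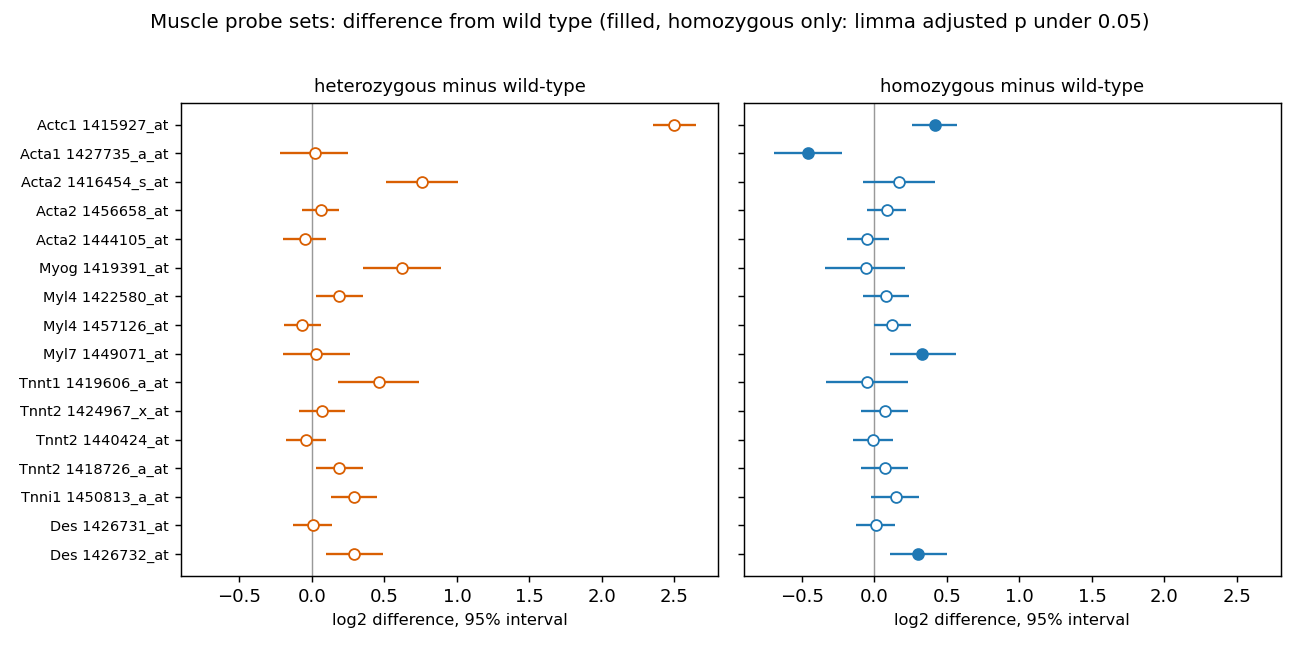
Log2 difference from wild type (horizontal axis) of each of the 16 probe sets (vertical axis) in heterozygous and homozygous blood, with 95% intervals from the limma fit. In the homozygous panel filled points had an adjusted p under 0.05; the heterozygous panel, which chose the genes, shows no calls. Actc1 at 2.50 and Acta1 at -0.46 mark the extremes; with the poly-A spike-ins set equal all differences would be lower by 0.88 (heterozygous) or 1.58 (homozygous).

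Other muscle genes were read from lists of 64 genes that are not among the 10, each by its brightest probe set, of which 63 had one of their own. These lists were chosen with earlier results of these data known, so their counts and p-values are a description only. In heterozygous blood 2 of the 63 rose and 1 fell, 3.17% and 1.59%, where 4.79% of all genes rose and 7.04% fell. The median difference was 0.04, against 0.01 over all genes. Myl1, a light chain gene of fast skeletal and embryonic muscle, was at 3.08, 3.01 and 3.11 in wild-type and 3.48, 3.70 and 3.81 in heterozygous blood, a rise of 0.60 ± 0.08 (SE, limma adjusted p = 0.000706). Tnnc1, which encodes troponin C of heart and slow muscle, was at 5.20, 5.08 and 5.26 in wild-type and 5.74, 5.53 and 5.63 in heterozygous blood, a rise of 0.45 ± 0.08 (SE, limma adjusted p = 0.0037). Neither passed in homozygous blood (0.12 and -0.08).

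Of the 63, 60 did not pass in heterozygous blood by their brightest probe set. Other probe sets were read only for genes past the threshold in either contrast, so a rise at a dimmer probe set could be missed. Of 17 cardiac sarcomere genes only Tnnc1 rose, and the cardiac myosin heavy chain genes Myh6 and Myh7 gave differences of -0.04 and -0.03 (limma adjusted p = 0.906 and 0.902). None of 8 cardiac regulators passed, with Nkx2-5 at -0.02 and Gata4 at -0.33 (limma adjusted p = 0.937 and 0.0876). Of 14 skeletal sarcomere and synapse genes Myl1 rose, and the embryonic myosin gene Myh3 was at 0.39 (limma adjusted p = 0.0889). None of 8 measured myogenic regulators passed, and Myod1, a myogenic factor that acts before Myog, was at 0.23 (limma adjusted p = 0.0564). None of 9 smooth muscle genes passed, with Tagln at 0.24 and Myh11 at 0.02 (limma adjusted p = 0.146 and 0.937).

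In homozygous blood 6 of the 63 rose and 2 fell, 9.52% and 3.17%, where 10.7% of all genes rose and 14.9% fell. The count of 8 was 4 without wild-type replicate 1 and 5 without homozygous replicate 2. The rises were 0.27 in Myl3 and Pln, 0.24 in Mylpf, 0.22 in Ckm and Ryr1, and 0.33 in Mrtfb. All 6 became lower values with the spike-ins set equal. Other probe sets gave 0.23 and 0.23 for Myl3, and 0.07 and -0.03 for Pln. They gave 0.14 for Ckm, 0.10 for Ryr1, and 0.08 and 0.15 for Mrtfb. Of these, only 1427769_x_at of Myl3 passed (limma adjusted p = 0.0438). Myl3, a cardiac light chain gene, was kept when any 1 array was left out (0.24 to 0.30). The others were each lost without some arrays. Pln was lost without wild-type replicate 1 (0.24) or 2 (0.26) or homozygous replicate 2 (0.22) or 3 (0.24). Mylpf was lost without wild-type replicate 3 (0.20) or homozygous replicate 1 or 3 (0.23 each), and Mrtfb without wild-type replicate 1 (0.25) or homozygous replicate 1 (0.28). Ckm was lost without wild-type replicate 1 (0.18) or 3 (0.20) or homozygous replicate 2 (0.19) or 3 (0.22). Ryr1 was lost without wild-type replicate 1 (0.21) or 2 (0.17), homozygous replicate 1 (0.19) or 2 (0.21) or any heterozygous array (0.22 each).

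The falls were in MEF2 genes, which encode transcription factors of muscle that also act in blood cells. Mef2a was at 6.55, 6.64 and 6.72 in wild-type, 6.25, 6.26 and 6.07 in heterozygous and 5.20, 5.07 and 5.11 in homozygous blood by its brightest probe set. It fell in heterozygous blood by a log2 difference of -0.45 ± 0.07 (SE, limma adjusted p = 0.00206) and in homozygous blood by -1.51 ± 0.07 (SE, limma adjusted p = 4.07e-08). A second bright probe set of Mef2a gave -0.32 and -1.36, while 1442623_at gave 0.12 and 0.17. The dimmer 1421252_a_at gave -0.11 and -0.41, 1427186_a_at -0.20 and -0.62, and 1425426_a_at 0.15 and 0.21. Of the dimmer ones only 1427186_a_at passed, in homozygous blood (limma adjusted p = 0.0403). Mef2c was at -0.76 ± 0.19 in homozygous blood (SE, limma adjusted p = 0.0146), where replicate 3, at 5.10, lay near wild type (5.30, 5.25 and 5.25) and replicates 1 and 2 were at 4.14 and 4.28. That call was lost without wild-type replicate 1 (-0.74) or homozygous replicate 1 (-0.57) or 2 (-0.64). The other Mef2c probe sets gave -0.23, 0.03, -0.11 and -0.33 in homozygous blood. Only the last of them, 1451507_at, the dimmest, passed (limma adjusted p = 0.00401). Srf, the gene of serum response factor, was at 0.02 and 0.04 and did not pass (limma adjusted p = 0.892 and 0.691).

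**Figure D3:**
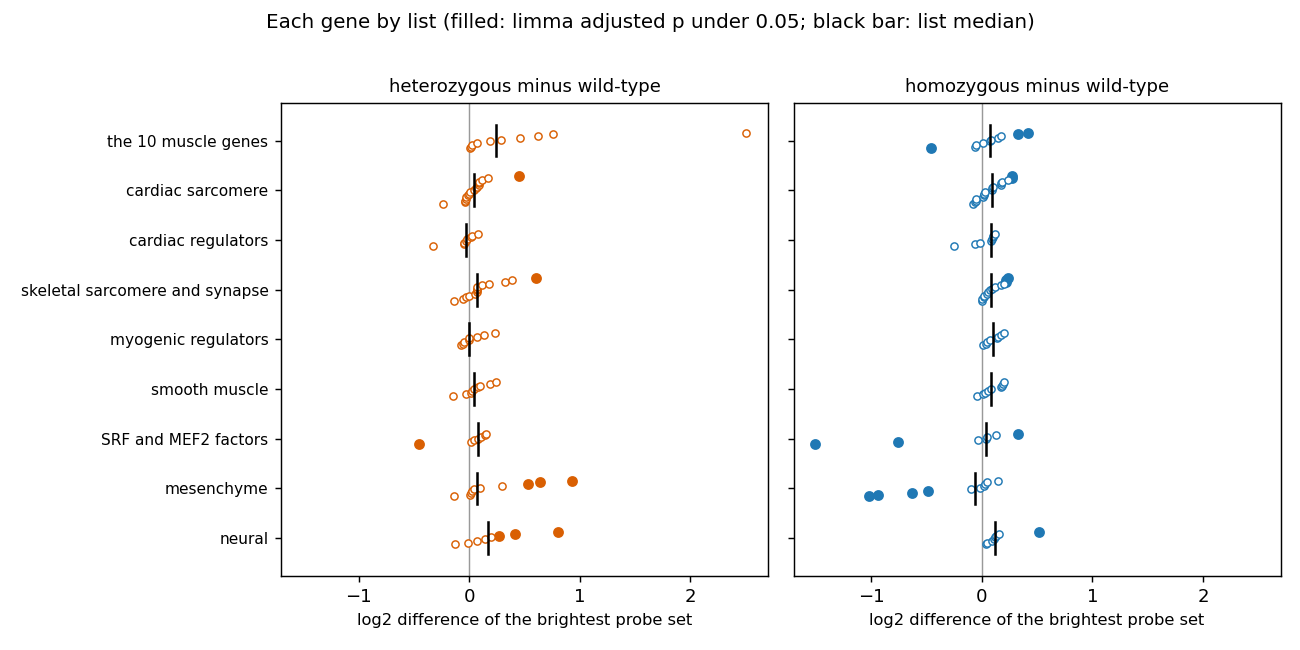
Log2 difference from wild type (horizontal axis) of each gene's brightest probe set, by gene list (vertical axis), in heterozygous and homozygous blood. Filled points had a limma adjusted p under 0.05 (not shown for the 10 muscle genes in the heterozygous panel) and black bars mark list medians. Outside the 10 muscle genes, the 6 other muscle lists had medians between -0.03 and 0.08 in heterozygous blood, relative values that all move below 0 with the spike-ins set equal.

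Some markers of other embryonic tissues also differed between the genotypes. Their lists were chosen with earlier results of these data known, so the counts beside the shares of all genes are a description only. Of 10 mesenchyme genes, 3 rose in heterozygous blood, where 4.79% of all genes rose: Col3a1 at 0.93, Dlk1 at 0.64 and Col1a2 at 0.53. Other probe sets gave 0.25 for Col3a1, -0.09 for Dlk1, and 0.69 and -0.03 for Col1a2. The other 7 did not pass, with heterozygous differences from -0.14 in Pdgfrb to 0.30 in Twist1. Levels were also summed over all 10 (log2 values turned to a linear scale and added over the list). The sum was 491 to 494 in wild-type, 610 to 647 in heterozygous and 377 to 395 in homozygous arrays. It includes the 3 genes that rose, so it is no separate result and does not show a rise of the whole list. In homozygous blood 4 of the 10 mesenchyme genes fell, where 14.9% of all genes fell: Lum at -1.02, Col3a1 at -0.94, Postn at -0.63 and Col1a2 at -0.49. Other probe sets gave -0.22 for Col3a1 (limma adjusted p = 0.141), and -0.83 and 0.06 for Col1a2. Of 8 neural genes, 3 rose in heterozygous blood, against the same 4.79% of all genes: Tubb3 at 0.80, Nefl at 0.41 (0.40 at its other probe set) and Sox2 at 0.27, with sums of 167 to 173, 176 to 191 and 183 to 192. The Sox2 call was lost without wild-type replicate 1 (0.27), 2 (0.28) or 3 (0.26) or heterozygous replicate 2 (0.23) or 3 (0.23). In homozygous blood, where 10.7% of all genes rose, 1 of the 8 did: Tubb3 rose by 0.52, a call lost without homozygous replicate 1 (0.44). None of 7 endothelium genes passed, with sums of 122 to 128, 129 to 133 and 113 to 126. For the 9 muscle genes other than Actc1 the sums were 250 to 256, 300 to 323 and 237 to 267. For the 63 other muscle genes they were 2084 to 2120, 2145 to 2171 and 2091 to 2198. The heterozygous sums of the mesenchyme genes and the 9 muscle genes lay above those of both other genotypes. The endothelium sums did so by a narrow gap (129 against 128). Those of the neural genes and the 63 other muscle genes overlapped the homozygous sums. Arrays of heterozygous and wild-type blood did not overlap in 24.1% of all single probe sets, and no such share was taken for sums. The 9 genes belong to the set that the heterozygous contrast chose, so nothing is read from their sums. The part of these tissues in the muscle values was not tested. In pooled blood, a change in the number of cells of a type and a change in RNA per cell cannot be told apart.

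The genes whose levels followed Actc1 most closely over the 9 arrays were Pfn2, Gpc3, Lyve1, Nr2f1 and Tubb2b. Pearson's r was 0.952, 0.938, 0.932, 0.928 and 0.925, out of 740 genes whose brightest probe set ranged over at least 1 log2 unit. The arrays form 3 genotype groups, so r mostly reflects the heterozygous arrays being high. The 5 genes were picked for likeness to Actc1, so their high heterozygous arrays are no separate result. Pfn2, which encodes a profilin that binds actin, was at 3.71, 3.63 and 3.66 in wild-type, 4.20, 4.59 and 4.41 in heterozygous and 3.55, 3.71 and 3.60 in homozygous blood. Gpc3, a cell surface proteoglycan gene, was at 5.26, 5.16 and 5.15, then 6.25, 6.00 and 5.79, then 5.25, 5.21 and 5.18. In both, the heterozygous arrays were above all others. The other probe sets of Pfn2 gave unlike heterozygous differences, 2.18 at 1418209_a_at and 0.30 at 1436993_x_at. Lyve1 differed from Actc1 in homozygous blood, where it was at -0.81 from wild type, and its other probe set gave a heterozygous difference of 0.29. Of the 15 other muscle probe sets, those most like Actc1 were 1416454_s_at of Acta2 (r = 0.92) and those of Myog (r = 0.86), Tnnt1 (r = 0.81) and Tnni1 (r = 0.80), while Acta1 was at r = 0.33 and Myl7 at r = -0.20.

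**Figure D4:**
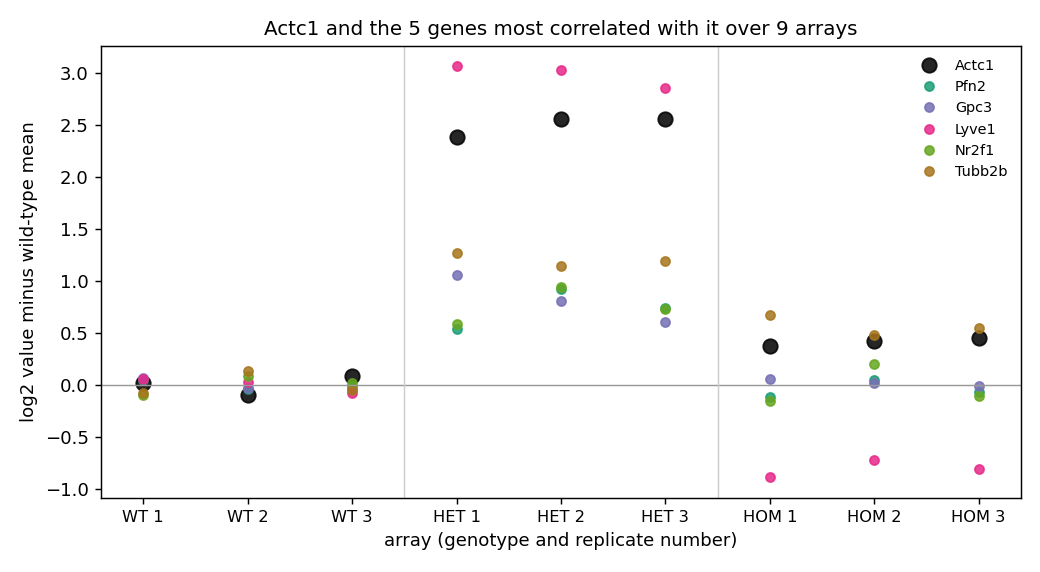
Log2 value minus the wild-type mean (vertical axis) of Actc1 and the 5 genes most correlated with it, in each of the 9 arrays (horizontal axis). All 6 genes were high in the heterozygous arrays, which follows from how they were chosen. In homozygous blood they separated, with Tubb2b at 0.56, Actc1 at 0.42 and Lyve1 at -0.81 from wild type.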

How the data were processed

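Total RNA of pooled embryonic blood was profiled on 9 Affymetrix mouse arrays. The deposited values, which the authors made with Affymetrix Expression Console 1.0, RMA and Partek 6.5 per the submitters' processing notes (roles not given), run from 1.49 to 14.56. Their scale is not stated. It was read as log2 because RMA writes log2 and the range fits, so the authors deposited normalized log2 values. RMA removes uniform differences between arrays. After 64 control probe sets were set aside, 45037 remained. Of these, 34945 had 1 gene in the platform annotation, and no probe set was shared between one of the 10 genes and another gene. A model of genotype over all 9 arrays was fitted in R 4.3.3 by limma 3.58.1 with moderated variances, 2-sided, with Benjamini-Hochberg adjustment over all 45037 and a threshold of 0.05. The procedure was tested on simulated arrays. The members and lists were chosen with earlier results of these data known. Named were all members, up to 4 called genes per list and contrast (otherwise up to 2 uncalled), and the 5 genes most correlated with Actc1; Myh3, Myh6, Myh7, Srf and second probe sets were added after their values were seen. The alternatives were 11 settings of the fit or scaling and the 9 fits without 1 array. Promoter sequences come from RefSeq, GRCm38.p6. Figures used matplotlib 3.10.9.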

Additional observations from a re-analysis of the deposited data

How the results depend on the processing

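The counts were those of probe sets of the 10 genes or of other muscle genes past the threshold. Of the 16 probe sets, 4 were past it in homozygous blood. Cyclic loess, quantile normalization and a threshold of 0.01 gave 2 each, and leaving out 1 array gave 2 to 3. In heterozygous blood the 5 became 3 with reference genes set equal and 3 at the threshold of 0.01, and 3 to 5 without 1 array. Of the 63 other muscle genes, 8 in homozygous blood became 5 with only the 2 groups compared and 2 at the threshold of 0.01, and 4 to 8 without 1 array. The 3 in heterozygous blood became 5 with the replicate number as a block, 6 with array weights and 5 with reference genes, and 3 to 4 without 1 array. Replicate numbers showed no clear pairing of the arrays. Deviations from the group means correlated at -0.02 to 0.07 between arrays of the same number and at -0.06 to 0.03 between other arrays. Of the 9 arrays, 2 correlated best with their own number. Correlations this small do not exclude a pairing. With the poly-A spike-ins set equal the counts were 16 and 14 for the muscle probe sets and 63 and 63 for the other genes. Under that scaling 21 of the 32 called differences changed sign. In heterozygous blood they were -0.08 for Tubb3, -0.12 for Acta2, -0.61 for Sox2, -0.43 for Tnnc1, -0.26 for Myog, -0.42 for Tnnt1, -0.24 for Dlk1, -0.59 for Tnni1, -0.35 for Col1a2, -0.28 for Myl1 and -0.47 for Nefl. In homozygous blood they were -1.17 for Actc1, -1.06 for Tubb3, -1.36 for Ckm, -1.28 for Des, -1.31 for Myl3, -1.25 for Mrtfb, -1.34 for Mylpf, -1.25 for Myl7, -1.36 for Ryr1 and -1.31 for Pln. The cause of these moves was not tested, beyond the shift that the scaling itself adds. No other alternative changed the sign of a called difference, and 8 of the 32 kept their call in all alternatives, among them Acta1 in homozygous blood. All of these but the heterozygous rise of Actc1 were falls, which the spike-in scaling cannot undo. The 32 include the heterozygous differences that chose the 10 genes, from which nothing is read. Setting reference genes equal moved the median of all probe sets to -0.13 in heterozygous blood. Signal over background is unknown, which limits what the dim probe sets can show.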
